A study of Mus musculus and synthetic construct with 32 samples.

Results

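Stra8 and 8 genes of retinoic acid synthesis, breakdown, binding and sensing were followed in gonads of Ythdc2 knockout mice, and Stra8 was the member that passed the test, higher in the knockout in introns of the P12 testis and in exons of the newborn ovary. The members were taken by name, 9 of the 22976 genes that had a sense exon or sense intron row in the tables. All 9 had both rows in each table. Ythdc2 encodes an RNA helicase whose YTH domain binds N6-methyladenosine (m6A), a base modification of RNA. All mice were of the C57BL/6J strain. Total RNA was sequenced from testes at postnatal day 12 (P12), with 3 libraries of YTHDC2 -/- and 3 of YTHDC2 +/- mice. Testes at P8 gave 2 YTHDC2 -/- libraries, 1 YTHDC2 +/- library and 1 YTHDC2 +/+ library, and ovaries at P0 gave 2 YTHDC2 -/- and 2 YTHDC2 +/- libraries. The knockout came as 2 lines, one lacking exon 7 and one with stop codons in that exon, and the labels do not tell the line of a library or whether animals were pooled. For m6A, RNA of P8 YTHDC2 +/+ testes was sequenced after immunoprecipitation with an m6A antibody and as input, 1 library each.

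Retinoic acid is made from retinol, which retinol dehydrogenases oxidise to retinal and retinaldehyde dehydrogenases then to the acid. It binds nuclear receptors of the RAR family, which pair with RXR receptors on DNA, and it is cleared by CYP26 enzymes. In the gonads it induces Stra8, a transcription regulator needed for entry into meiosis, first in the fetal ovary and after birth in spermatogonia and preleptotene spermatocytes of the testis. In the fetal mouse testis CYP26B1 breaks retinoic acid down and thereby holds back meiotic entry.

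Values were read from the authors' deposited tables, which give each gene a mean normalized count over all libraries of a table, log2 fold changes and adjusted p-values. They hold no value per library, so no spread between libraries can be given beside a fold. A row was counted as tested when its mean normalized count was at least 10 and it had an adjusted p, and as called when that adjusted p was below 0.05. Over all features, the mean normalized counts added up to between 23754190 and 42229589 per table. Ythdc2 exons had log2 folds in the authors' deposited tables of -1.29 at P12 (adjusted p = 9.87e-25), -0.43 in ovary (0.584) and -0.50 at P8 against the wild type (1). The lesion lies in a single exon, so a count over the gene does not check it. Markers of the labelled tissues were measured. In P12 exons 14 of 14 Sertoli cell genes and 12 of 13 spermatocyte genes were tested. In ovary exons it was 11 of 12 oocyte genes and 8 of 8 pregranulosa genes. These counts do not tell the tissues apart. Also tested were 13 of 14 Sertoli cell and 12 of 13 spermatocyte genes in ovary exons. In P12 exons 8 of 12 oocyte and 7 of 8 pregranulosa genes were tested as well.

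Stra8 lies on chromosome 6 (34920163 to 34939344, plus strand, GRCm38.p6). Its annotated promoter is shown because Stra8 is the member with called changes and a gene that retinoic acid induces. RAR and RXR receptors recognise pairs of the half-site AGGTCA and its variants. RefSeq promoter windows, from 250 bases before to 50 bases after an annotated start, were found for 7 of the 9 members in 12 windows, and they were searched on both strands for AGGTCA alone. The match was in windows of 3 members, 2 times in that of Stra8 and 1 time in each of the Rara and Rarg windows given here, where capitals mark it (as its reverse complement TGACCT for Rarg) and each sequence runs 5′ to 3′ on the strand of its gene (GRCm38.p6).
Stra8, chr6:34920698-34920997, plus strand: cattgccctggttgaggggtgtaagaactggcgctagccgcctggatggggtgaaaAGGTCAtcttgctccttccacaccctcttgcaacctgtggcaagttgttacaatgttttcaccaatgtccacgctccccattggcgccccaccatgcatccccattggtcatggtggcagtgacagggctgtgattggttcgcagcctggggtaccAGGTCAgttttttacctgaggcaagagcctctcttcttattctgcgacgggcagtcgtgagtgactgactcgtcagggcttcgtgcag
Rara, chr11:98964622-98964921, plus strand: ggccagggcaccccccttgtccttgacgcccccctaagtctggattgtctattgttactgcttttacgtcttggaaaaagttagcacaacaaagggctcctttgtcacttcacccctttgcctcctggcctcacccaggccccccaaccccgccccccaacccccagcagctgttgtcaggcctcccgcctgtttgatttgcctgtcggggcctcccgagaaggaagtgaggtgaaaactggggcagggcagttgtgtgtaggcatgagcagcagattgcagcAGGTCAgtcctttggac
Rarg, chr15:102257473-102257772, minus strand: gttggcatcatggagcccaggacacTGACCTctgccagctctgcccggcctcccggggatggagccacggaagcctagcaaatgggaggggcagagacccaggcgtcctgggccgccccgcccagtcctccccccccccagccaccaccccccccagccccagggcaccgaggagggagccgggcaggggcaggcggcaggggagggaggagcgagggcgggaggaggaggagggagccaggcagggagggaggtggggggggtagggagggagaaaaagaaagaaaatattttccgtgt

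In the Stra8 window the matches began 194 and 38 bases before the annotated start site at position 34920948, with 150 bases between them, both on the strand of the gene. That start lies inside the annotated span of Stra8, which begins at 34920163. The Rarg match lay on the opposite strand, beginning 225 bases before the start at 102257522, which is 1 of 2 starts with a window for Rarg. The Rara match lay 34 bases past the start at 98964872, which is 1 of 4 starts annotated for Rara. Of all 32851 RefSeq promoter windows, 16.3% held at least 1 AGGTCA and 1.81% at least 2. Counted by gene, as the members were, 18.1% of 27025 genes had a window with at least 1. For at least 2 in a window the share of genes was 2.03%. A match is a description of the sequence. The search took single half-sites with no rule on spacing, so 2 in a window are not shown to be a receptor pair. Binding at these positions was not measured.

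Stra8 itself was higher in knockout testes at P12 in introns. Its introns rose by a log2 fold of 0.60, or 1.52-fold, in the authors' deposited P12 table (adjusted p = 0.0173, DESeq2). Of 13874 intron rows tested, 1.02% were called in either direction and 0.0937% were called higher. Stra8 exons had a log2 fold of 0.39, or 1.31-fold, by the authors' deposited P12 table, short of the threshold (adjusted p = 0.187). That exon fold was above those of 99.6% of tested exon rows, and the intron fold above 99.9% of tested intron rows. The mean normalized counts behind these folds were 3309 in exons and 954 in introns. The exon fold was 0.21 smaller than the intron fold on the log2 scale, and the difference between them was not tested.

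In the newborn ovary Stra8 was higher in exons at a low level. The authors' deposited ovary table gave its exons a log2 fold of 0.52, or 1.44-fold (adjusted p = 0.0266, DESeq2), at a mean normalized count of 26.3. Of 14606 exon rows, 0.548% were called and 0.103% were called higher. The introns had a log2 fold of 0.43 in the authors' deposited ovary table, short of the threshold (adjusted p = 0.176), at a mean count of 15.5. In the P8 testis the folds of Stra8 against the wild type were 0.01 in exons and 0.05 in introns in the authors' deposited P8 table, at mean counts of 1319 and 381.7. Against the heterozygote, with the same 2 knockout libraries, they were 0.01 and 0.07, and the adjusted p was 1 for each of these 4 folds in the authors' deposited P8 table. Each table holds its own normalization, and fold sizes are not compared between tables. Whether the P8, P12 and ovary folds of Stra8 differ from each other was not tested.

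**Figure D1:**
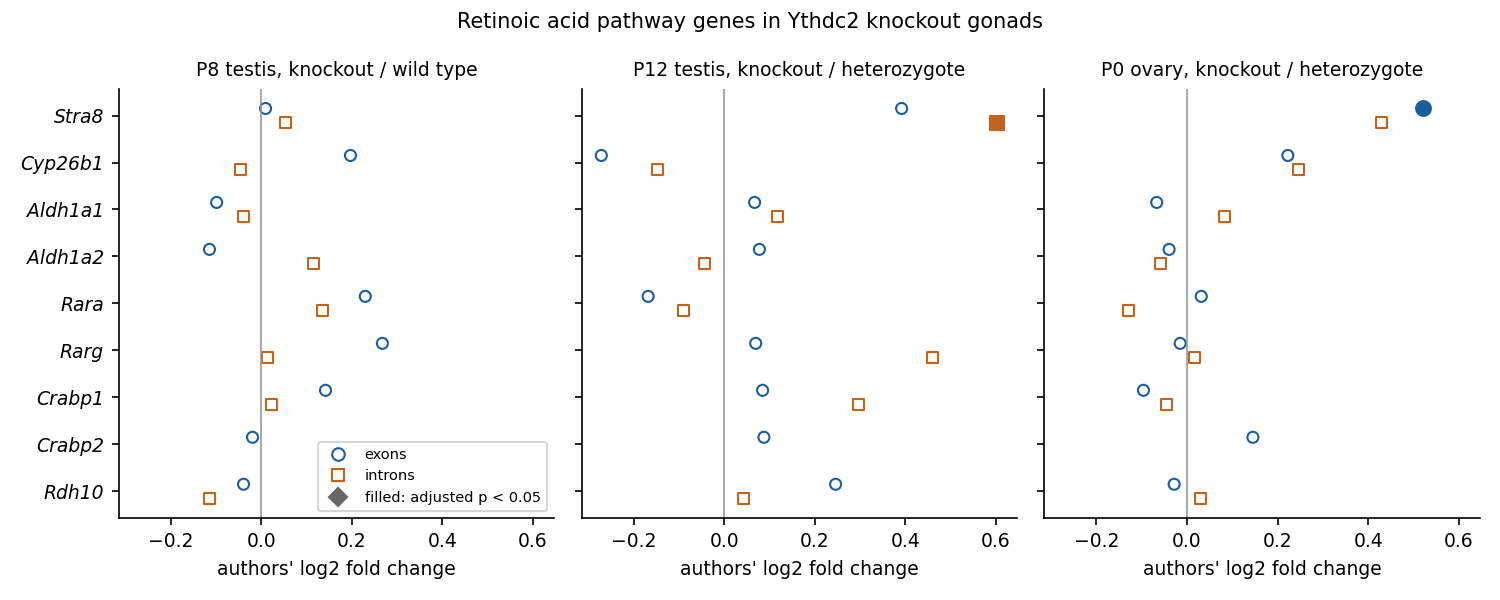
Log2 fold changes of the 9 members from the authors' deposited tables (x axis, circles for exons, squares for introns, filled where the adjusted p was below 0.05), in P8 testis against wild type, P12 testis and P0 ovary against heterozygote. Stra8 introns at 0.60 in P12 testis and Stra8 exons at 0.52 in ovary are the 2 filled points, and Crabp2 introns are left out for counts under 10.

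Cell type markers moved in the same comparisons, and in bulk RNA fewer cells of a type and less RNA per cell cannot be told apart. In the P12 testis 11 of 12 tested spermatocyte genes were called lower in exons in the authors' deposited P12 table, with a median log2 fold of -0.77. Of all tested rows at P12, 0.881% of exons and 1.02% of introns were called in either direction. The 8 genes of differentiating spermatogonia, which express Stra8 before meiotic entry, had an exon median of -0.01 with 0 called in the authors' deposited P12 table. In introns, where Stra8 was called, all 8 of those genes lay above 0, with a median of 0.10 and 0 called by the authors' deposited P12 table. This was not particular to them, as 6 of 6 pregranulosa introns (median 0.15) and 10 of 12 peritubular and stromal introns (0.12) also lay above 0. Above 0 were 4 of 14 Sertoli cell introns, 4 of 9 germ cell, 5 of 11 undifferentiated spermatogonia and 0 of 13 spermatocyte introns. Exons of 14 Sertoli cell genes had a median of -0.08 with 0 called, and exons of 12 germ cell genes -0.00 with 0 called, in the authors' deposited P12 table. Of 7 Leydig cell genes 1, Cyp17a1, was called higher in exons, with a median of 0.18, while in introns 1 of 7, Lhcgr, was called lower, with a median of -0.14, in the authors' deposited P12 table. Undifferentiated spermatogonia genes were at 0.01 with 0 of 12 called, and peritubular and stromal genes at 0.15 with 0 of 12 called in the authors' deposited P12 table. In ovary 8 of 11 oocyte genes were called lower, with a median of -1.06, and the 12 stromal genes, all above 0, had a median of 0.23 with 0 called in the authors' deposited ovary table. Of all tested ovary rows, 0.548% of exons and 0.279% of introns were called in either direction. Among the other ovary lists, 4 of 11 germ cell genes were called lower and 1 higher, and 3 of 7 differentiating spermatogonia genes lower, by the authors' deposited ovary table. Sertoli cell genes lay above 0 in 11 of 13 exons and 8 of 8 introns (medians 0.18 and 0.24), and Leydig cell genes in 7 of 7 exons (median 0.16), with 0 called, in the authors' deposited ovary table. Of 13 spermatocyte genes 9 lay above 0 in introns and 1, Hormad2, was called higher, by the authors' deposited ovary table. The part of these shifts in the Stra8 folds was not tested.

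The 4 member genes for enzymes that make or break down retinoic acid, Cyp26b1, Aldh1a1, Aldh1a2 and Rdh10, did not pass in the knockout comparisons. Cyp26b1 (chromosome 6, 84571414 to 84593908), whose product degrades retinoic acid, had exon log2 folds in the authors' deposited tables of 0.20 at P8 against the wild type, -0.27 at P12 (adjusted p = 0.309) and 0.22 in ovary. Its introns stood at -0.05, -0.15 and 0.25 in the same order in the authors' deposited tables. The exon fold at P12 was above only 4.20% of tested exon rows, while the ovary fold was above 96.3%, and the difference between the ages and tissues was not tested.

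Among the synthesis genes, Aldh1a1 (chromosome 19, 20492583 to 20643463), a retinaldehyde dehydrogenase with strong expression in Sertoli cells, had exon folds of -0.10 at P8 against the wild type, 0.07 at P12 and -0.07 in ovary in the authors' deposited tables. Aldh1a2 (chromosome 9, 71215789 to 71296243) encodes a retinaldehyde dehydrogenase that germ cells of the adult testis express from meiosis on. Its exon folds were -0.11, 0.08 and -0.04 in the same order in the authors' deposited tables. At P12, where 11 of 12 spermatocyte markers were called lower, the Aldh1a2 exon fold was above 71.5% of tested exon rows. Which cells held Aldh1a2 RNA at P12 was not measured. Rdh10 (chromosome 1, 16105882 to 16132550), a retinol dehydrogenase of the first oxidation step, had exon folds of -0.04 at P8, 0.25 at P12 (adjusted p = 0.674) and -0.03 in ovary in the authors' deposited tables. None of these genes had an intron fold larger than 0.12 in size at P8, P12 or in ovary in the authors' deposited tables, with the P8 wild type as control. Against the P8 heterozygote, Aldh1a2 introns had a log2 fold of 0.26 (adjusted p = 1), above 98.1% of tested intron rows, in the authors' deposited P8 table.

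The receptors and binding proteins did not pass either, and Rarg introns had the next lowest adjusted p after Stra8 at P12. Rarg (chromosome 15, 102234938 to 102257522) encodes the receptor of undifferentiated and differentiating spermatogonia. In the P12 testis its introns had a log2 fold of 0.46 (adjusted p = 0.0980) beside an exon fold of 0.07 (0.994) in the authors' deposited P12 table. That intron fold was above 99.5% of tested intron rows and lay below that of Stra8. In ovary Rarg exons were at -0.02 and introns at 0.02 in the authors' deposited ovary table. Rara (chromosome 11, 98927800 to 98974942), the receptor that acts in Sertoli cells, had exon and intron folds of -0.17 and -0.09 at P12 and 0.03 and -0.13 in ovary in the authors' deposited tables.

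Crabp1 (chromosome 9, 54764748 to 54773110), a cytosolic protein that binds retinoic acid, had folds of 0.09 in exons and 0.30 in introns at P12 (adjusted p = 0.994 and 0.864) in the authors' deposited P12 table. In ovary they were -0.10 and -0.05 in the authors' deposited ovary table. Crabp2 (chromosome 3, 87948693 to 87953372), which carries retinoic acid to the receptors, was a low row in testis, with exon mean counts of 18.6 at P8 and 26.5 at P12 and introns under 10 in every table. Its exon folds were 0.09 at P12 and 0.15 in ovary in the authors' deposited tables. Over the members tested at P12, 0 of 9 exon rows (0.881% called among all exon rows) and 1 of 8 intron rows were called. In ovary 1 of 9 exon rows and 0 of 8 intron rows (0.279% called among all intron rows) were called. The median log2 fold over the members tested was 0.08 in exons and 0.08 in introns at P12, and -0.02 and 0.02 in ovary. All tested rows at P12 had medians of 0.01 for exons and 0.01 for introns.

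At P8 no member was called, and the largest exon fold against the wild type was 0.27 in size, beside 0.16 between the 2 controls, by the authors' deposited P8 table. By the authors' deposited P8 table, the members called were 0 of 9 in exons and 0 of 8 in introns against the wild type, where 0.0449% of all exon rows and 0.0141% of all intron rows were. Against the heterozygote the members' counts were also 0 of 9 and 0 of 8, with 0.0577% of all exon rows and 0.0212% of all intron rows called. Exon folds ran from -0.11 for Aldh1a2 to 0.27 for Rarg, and the largest other ones were 0.23 for Rara and 0.20 for Cyp26b1 in the authors' deposited P8 table. The heterozygote over the wild type, 1 library each, gave exon folds from -0.16 for Aldh1a2 to 0.12 for Rarg in the authors' deposited P8 table. Against the heterozygote the knockout had exon folds of 0.15 for Rarg, 0.12 for Rara, 0.23 for Cyp26b1 and 0.05 for Aldh1a2 in the authors' deposited P8 table. Both comparisons use the same knockout libraries.

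The level of each member was described as its share of the summed exon mean counts of a table. These shares average knockout and control libraries, are not divided by transcript length and are not compared between genes, and the tables were normalized separately. Stra8 took 174.6 counts per 1000000 at P12, 70.0 at P8 and 3.30 in the P0 ovary. Its share was thus 2.49 times as high at P12 as at P8, and 53.0 times as high at P12 as in ovary. Cyp26b1 had 318.1 at P12 and 285.2 at P8, against 33.9 in ovary. Crabp2 went the other way, with 12.9 in ovary, 1.40 at P12 and 0.988 at P8. The shares of Aldh1a2 were 118.5 at P12, 60.9 at P8 and 131.3 in ovary. For Aldh1a1 they were 765.6, 838.7 and 173.8 in the same order. Rarg ranged from 25.7 to 31.5 over the 3 tables and Crabp1 from 54.1 to 59.5. Rara had 89.5 at P12, 92.2 at P8 and 62.4 in ovary, and Rdh10 had 36.0, 28.1 and 56.0. With no spread between libraries, neighbours in these orders cannot be called different.

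**Figure D2:**
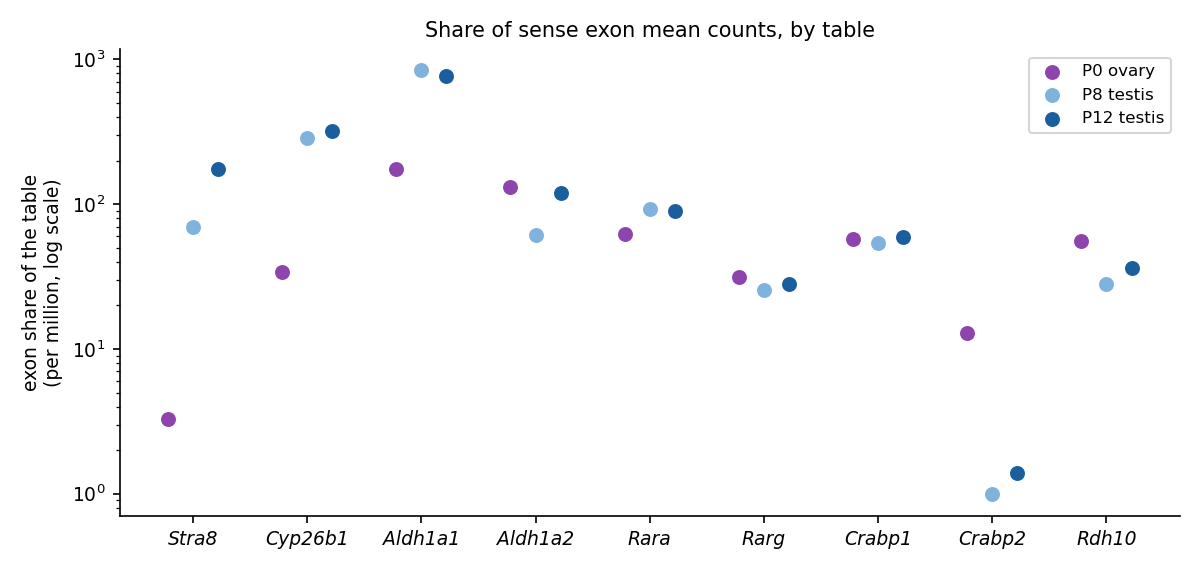
Share of the summed sense exon mean normalized counts taken by each member (y axis, counts per 1000000, log scale), in P0 ovary, P8 testis and P12 testis, 1 point per table. Stra8 is at 3.30 in ovary and 174.6 at P12, while Crabp1 stays between 54.1 and 59.5; heights are to be compared within a gene, since they are not divided by length.

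The ratio of intron to exon counts, which needs no length when read within a gene, was nearly the same for Stra8 at both ages of testis. It was 0.289 at P8 and 0.288 at P12, and 0.589 in ovary. Of the other 8 members, 7 had a lower ratio at P12 than at P8. Among these 7 was Crabp2, whose intron mean counts, 5.388 at P8 and 3.416 at P12, lay below the floor of 10. Aldh1a2 went from 1.13 to 0.605 and Aldh1a1 from 0.406 to 0.238, while Rarg went from 0.420 to 0.477. Over all genes the summed introns were 0.646 of the summed exons at P8, 0.419 at P12 and 1.09 in ovary.

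In the P8 m6A libraries, Stra8 exons were lower in the immunoprecipitate than in the input, while Rara exons were higher. Mean counts of the m6A table were taken over all its libraries, P12 and P20 ones included, and are not levels at P8 alone. The immunoprecipitate over input ratio of Stra8 exons was -0.90 on the log2 scale (adjusted p = 0.000212), at a mean normalized count of 1119, in the authors' deposited m6A table. Its introns had a ratio of 0.05 (adjusted p = 0.961) in the authors' deposited m6A table. Rara exons had a ratio of 1.41 (adjusted p = 6.58e-12) and its introns one of 0.51 (0.316) in the authors' deposited m6A table. Rarg, the other receptor, had an exon ratio of -0.12 by the authors' deposited m6A table, short of the threshold (adjusted p = 0.769). All 3 synthesis genes were lower in exons, with Aldh1a1 at -1.48, Aldh1a2 at -1.36 and Rdh10 at -1.23 in the authors' deposited m6A table (adjusted p = 6.44e-14, 8.36e-07 and 0.000482). Crabp1 exons at -0.57 (adjusted p = 0.108) and Cyp26b1 exons at -0.28 (0.194) missed the threshold in the authors' deposited m6A table.

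Cyp26b1 stood out for its introns, which were higher in the immunoprecipitate by a ratio of 1.01 (adjusted p = 0.00480) in the authors' deposited m6A table, at a mean count of 626.6. Aldh1a1 introns were lower by a ratio of -0.89 (adjusted p = 0.0291) in the authors' deposited m6A table. In all, 1 of 8 tested member exons was called higher and 4 lower, and 1 of 7 introns higher and 1 lower. Calls were common there, with 53.2% of exon rows (26.9% higher and 26.3% lower) and 8.87% of intron rows (5.76% higher and 3.11% lower) called among all genes, and a share of members near that is no result about them. With 1 library of each kind, the p-values compare those 2 libraries, and how their spread was estimated is not stated. A ratio compares fragments of a gene with those of other genes and is not the share of its RNA that is methylated.

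Marker lists of germ cells and of somatic cells both included some with exon ratios below those of all rows in the P8 m6A table. The median exon ratio was -1.24 over 11 germ cell genes, -1.10 over 8 differentiating spermatogonia genes and -1.05 over 13 spermatocyte genes, against -0.02 over all tested exon rows in the authors' deposited m6A table. The exon ratio of Stra8 was -0.90 beside these. Kit, the receptor of differentiating spermatogonia, had -1.24 and the meiotic cohesin gene Rec8 had -1.71 in the authors' deposited m6A table (adjusted p = 1.13e-05 and 0.000141), and Rec8 was chosen after its values were seen. Some somatic lists were also below the median of all rows, though above the ratio of Stra8. Their medians were -0.50 for 8 Leydig cell genes, -0.41 for 12 peritubular and stromal genes and -0.28 for 14 Sertoli cell genes, in the authors' deposited m6A table. The oocyte list had a median of -0.95 over 6 genes. The pregranulosa and undifferentiated spermatogonia lists had medians of 1.15 and 0.55, over 7 and 12 genes, in the authors' deposited m6A table.

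**Figure D3:**
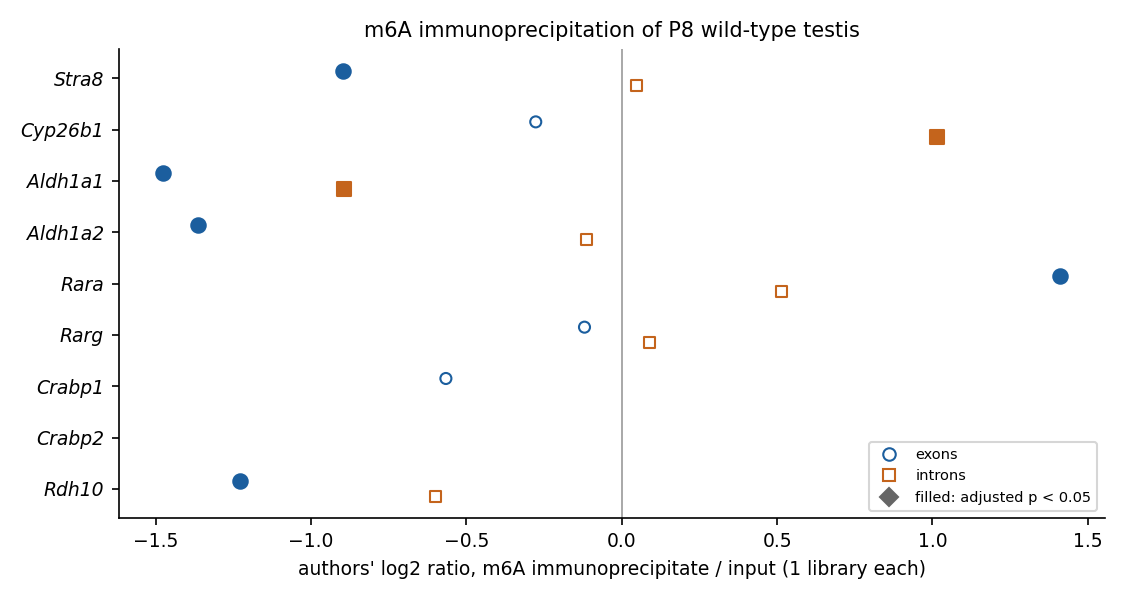
Log2 ratio of m6A immunoprecipitate over input in P8 wild-type testis from the authors' deposited table (x axis, circles for exons, squares for introns, filled where the adjusted p was below 0.05; 1 library each). Rara exons lie at 1.41 and Cyp26b1 introns at 1.01, while exons of Stra8, Aldh1a1, Aldh1a2 and Rdh10 lie between -1.48 and -0.90; Crabp2 and Crabp1 introns were not tested.

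The rest of the pathway was followed with 65 further listed genes in 8 roles. In the P12 testis 50 of them were tested in exons, with 0 called, and 43 in introns, with 2 called higher, at medians of 0.04 and 0.07 in the authors' deposited P12 table. Of all tested rows at P12, 0.881% of exons were called in either direction and 0.0937% of introns were called higher. The called introns were those of Adh1 and Meis2. Adh1 encodes an alcohol dehydrogenase that oxidises retinol, and its introns had a log2 fold of 0.70 (adjusted p = 0.0255) beside an exon fold of 0.37 (0.441) in the authors' deposited P12 table. Meis2, a homeobox gene that responds to retinoic acid in the limb, had introns at 0.74 (adjusted p = 0.00852) and exons at 0.33 (0.615) in the authors' deposited P12 table. In both, as for Stra8 at P12, the introns were called and the exons were not. The genes were named for those calls, so the larger intron fold follows in part from the choice and is no trait shared with Stra8.

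In ovary 48 listed genes were tested in exons, with 0 called higher and 2 lower, and 41 in introns, with 0 called. Of all tested ovary rows, 0.548% of exons and 0.279% of introns were called in either direction. The listed genes that fell were Kit and Sohlh1, both also in the oocyte and differentiating spermatogonia lists. Kit had a log2 fold of -0.84 and Sohlh1, a transcription factor of early germ cells, one of -1.06 in the authors' deposited ovary table (adjusted p = 7.58e-05 and 1.30e-07). Both were in the list of genes known to respond to retinoic acid, in which 14 genes had a median exon fold of -0.01 in ovary in the authors' deposited ovary table. At P12 the same list had 12 of 16 exons and 9 of 11 introns above 0, with medians of 0.09 and 0.24 in the authors' deposited P12 table. At P8 against the wild type 12 of 15 exons and 7 of 11 introns of that list lay above 0, with medians of 0.04 and 0.01. Against the P8 heterozygote it was 12 of 15 exons and 9 of 11 introns, with medians of 0.04 and 0.03. In ovary 5 of 14 exons and 4 of 11 introns lay above 0, with an intron median of -0.09. Over all 65 listed genes, 30 of 50 exons and 25 of 43 introns lay above 0 at P12. In ovary 24 of 48 exons and 24 of 41 introns did. The coregulators of receptors had 4 of 12 exons and 4 of 12 introns above 0 at P12. These counts were not tested. Over all listed genes, 0 of 50 exons and 0 of 43 introns were called at P8 against the wild type, beside the low shares of all P8 rows given above.

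**Figure D4:**
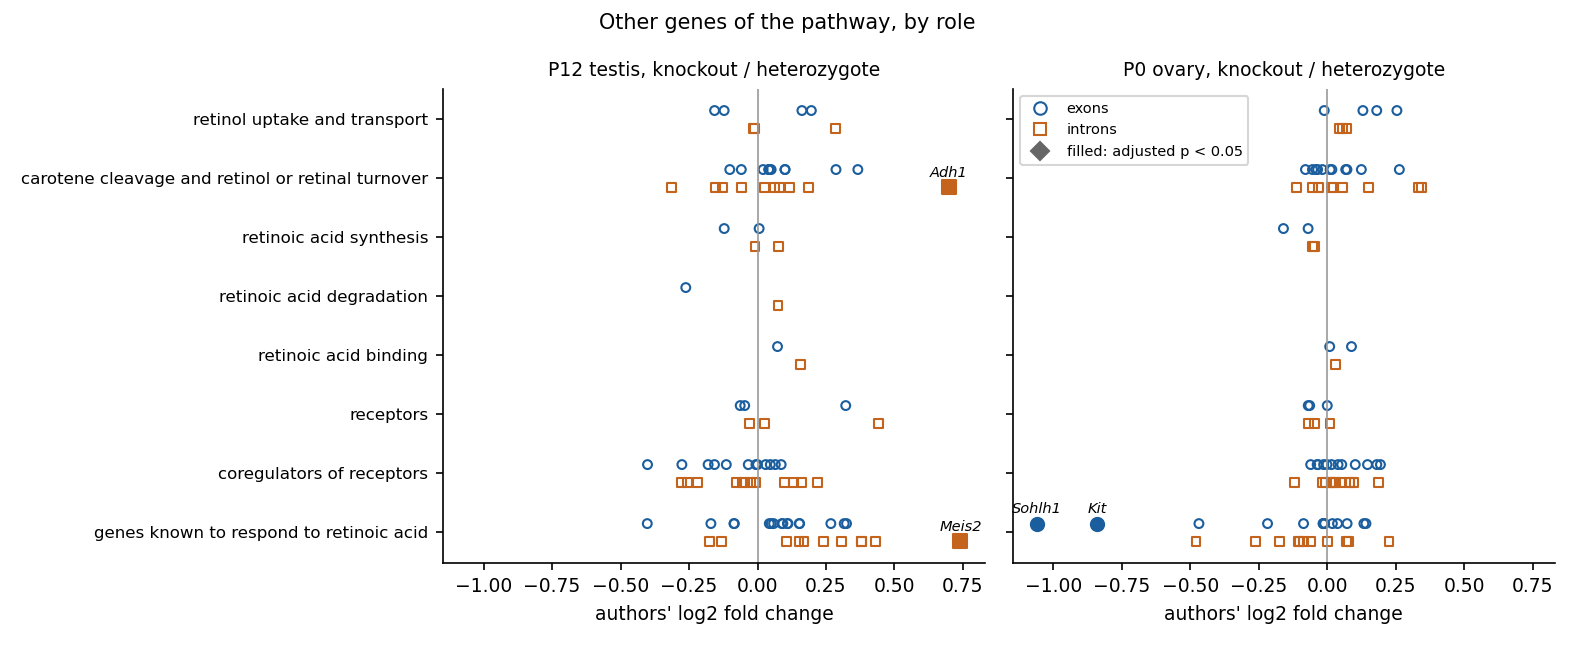
Log2 fold changes from the authors' deposited tables (x axis) of further genes of the pathway by role (rows), in P12 testis and P0 ovary, with circles for exons, squares for introns and filled symbols for an adjusted p below 0.05. The filled points are the introns of Adh1 at 0.70 and Meis2 at 0.74 at P12 and the exons of Kit at -0.84 and Sohlh1 at -1.06 in ovary.

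Within the other roles no row was called in the knockout comparisons with the P8 wild type, P12 or ovary heterozygote as control. The following genes had the highest exon mean count of their role at P12. Adh5, an alcohol dehydrogenase of broad expression, had exon folds of 0.29 at P12 (adjusted p = 0.358) and -0.04 in ovary in the authors' deposited tables. Aldh1a7, a close copy of Aldh1a1 whose reads may be shared with it, was at 0.01 and -0.16 in the same order in the authors' deposited tables. Cyp26a1, the other main degrading enzyme, was at -0.26 at P12 (adjusted p = 0.815) in the authors' deposited P12 table and under a mean count of 10 in ovary. The binding protein gene Fabp5 was at 0.07 and 0.09 in the authors' deposited tables.

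Rxra, the RXR partner receptor, stood at -0.05 in P12 exons in the authors' deposited P12 table. Ncoa2, a coactivator of nuclear receptors, was at -0.28 (adjusted p = 0.479) and 0.04, and Dmrt1, a regulator of spermatogonia, at 0.06 and 0.14 in exons of P12 testis and ovary in the authors' deposited tables. Rarb, a receptor gene that retinoic acid itself induces, had folds of 0.32 in exons and 0.44 in introns at P12 in the authors' deposited P12 table (adjusted p = 0.613 and 0.259), and was chosen after its values were seen.

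In the P8 m6A table the receptor Rxra was higher in the immunoprecipitate, like Rara, with an exon ratio of 1.29 (adjusted p = 8.70e-11) in the authors' deposited m6A table. Of the coregulators of receptors, 5 of 12 exons were called higher and 1 lower, near the 53.2% called among all exon rows, with the corepressor gene Nrip1 at 2.27 (adjusted p = 3.23e-24) in the authors' deposited m6A table. Fabp5 at -1.95 and Aldh1a7 at -1.74 were lower in the authors' deposited m6A table (adjusted p = 3.27e-05 and 1.44e-05). Over all 65 listed genes, 49 exons were tested, 16 were called higher and 12 lower, again near the 53.2% of all exon rows, and the median was 0.28. Nrip1 was chosen after its values were seen. The listed receptors Rxrb and Rarb had exon ratios of -0.19 and 0.48 by the authors' deposited values, and neither was called. The 10 tested genes of carotene cleavage and retinol or retinal turnover had a median exon ratio of 0.60. Of these, 6 lay above 0 and 4 below.

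The genes with the pattern most like that of Stra8 were sought by the Euclidean distance over 6 folds, those of exons and introns at P8 against the wild type, at P12 and in ovary. Among 11803 genes with a mean count of at least 10 in all 6 rows, the closest were Gsr, Gsto1, Cadps, Actg2 and Lrp2, with distances from 0.280 to 0.410. The median distance of all genes was 1.01, and those of the other 7 members with all 6 rows ran from 0.807 for Rarg to 1.18 for Rara. Gsr encodes glutathione reductase, Gsto1 a glutathione transferase, Actg2 a smooth muscle actin and Lrp2 an endocytic receptor. Gsr had log2 folds of 0.37 in P12 exons, 0.43 in P12 introns and 0.42 in ovary exons in the authors' deposited tables. These distances describe likeness of size and direction over 3 comparisons.

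**Figure D5:**
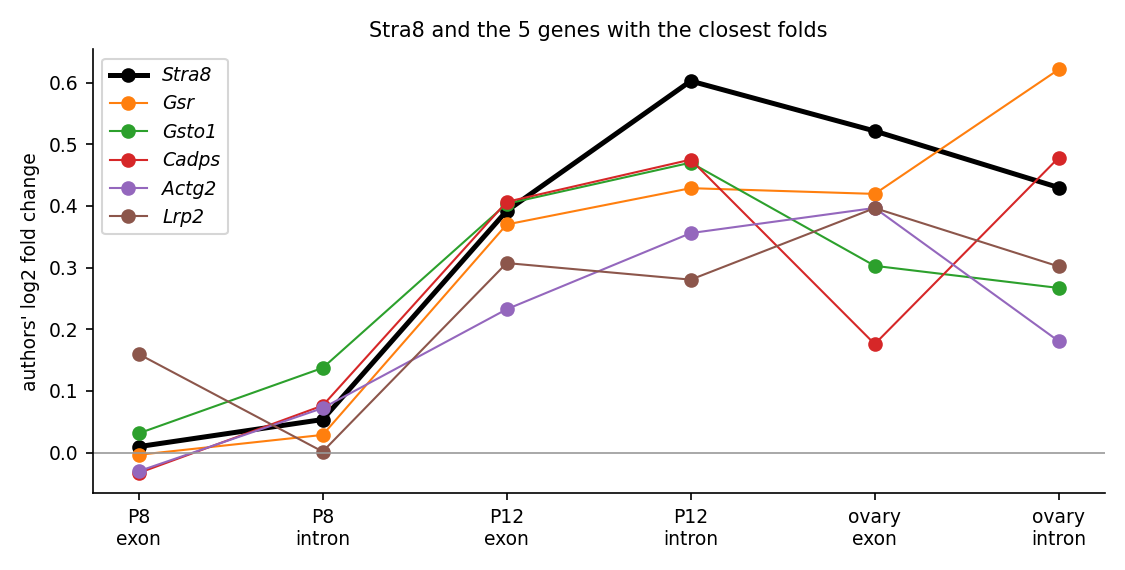
Log2 fold changes from the authors' deposited tables (y axis) of Stra8 (thick line) and the 5 genes closest to it over 6 folds (x axis: exons and introns at P8, P12 and in ovary). Lines join the values of a gene; Stra8 runs from 0.01 in P8 exons to 0.60 in P12 introns, and the 5 others lie above 0 in all P12 and ovary folds.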

How the data were processed

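Per the labels' protocols, total RNA was depleted of ribosomal RNA and prepared with a stranded kit, and polyadenylated RNA for m6A was fragmented and prepared with a small RNA kit. The authors used DESeq2, with mm10 named for testis libraries and cutadapt for ovary ones, per the submitters' processing notes. Their versions, the aligner and the annotation: not given in the sources used here. The authors deposited for each row, per the file headers, 1 mean normalized count (a signal averaged over the libraries), log2 fold changes and adjusted p-values. Headers of the P8 and P12 total RNA columns also contain "IP" and "input"; because the labels list total RNA, these columns were taken as knockout against control.

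Counts of rows past the threshold, medians, shares and distances were computed here (python 3.11.15, pandas 2.3.3). Rows needed a mean count of at least 10 and an adjusted p, with 0.05 as the threshold. Without values per library no test was fitted here, and no unadjusted p was at hand. The labels do not say that libraries came from separate animals, so the p-values measure the spread between libraries, which may be technical. Functions were tested on simulated data. In the m6A table only the P8 columns were used: at P12 2911 rows and at P20 2823 rows had a fold at a mean count of 0, against 0 at P8. The Bind-N-Seq file was not used, including 8 columns of single libraries that matched no label. Named pathway genes were those called in a knockout comparison and the gene with the highest exon mean count at P12 in each role; exceptions are marked, and 1 gene named by this rule is not reported here. The members and gene lists were chosen with earlier results of these data known.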

Additional observations from a re-analysis of the deposited data

How the results depend on the processing

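The calls rest on the threshold. Over exon and intron rows of the members together, 1 was called at P12, 1 in ovary, 0 at P8 and 7 in the m6A table. At a threshold of 0.1 the count at P12 became 2, with the Rarg introns added, and at 0.01 it was 0 at P12 and 0 in ovary. With a floor of 50 on the mean count, 0 were called in ovary, since the Stra8 exons lie below that floor. The other changes of threshold or floor, and the heterozygote as control at P8, left the counts within 1.5 times. Centring folds on the median of all rows of their type kept the sign of 65 of 66 folds, and the m6A ratio of Aldh1a2 introns, which was not called, went from -0.11 to 0.00448. No paired analysis was possible because the tables hold no values per library, and for the same reason no library could be left out. The precision of the folds is therefore not known, since the authors' adjusted p-values give no interval. The ovary result of Stra8 rests on a mean count of 26.3.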

Other observations

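Stra8 had the highest share of antisense exon counts among the members in the total RNA tables. Its antisense exon row had a mean normalized count of 27.2 at P8 and 63.7 at P12 in the authors' deposited tables, which was 2.06% and 1.93% of the sense exon count. For Aldh1a1, with far higher sense counts, the shares were 0.0310% and 0.0372%. For Cyp26b1 they were 0.168% and 0.111%. The antisense row of Stra8 had a log2 fold of 0.74 by the authors' deposited P12 table, with an adjusted p of 1.00. At P8 against the wild type its fold was -0.47, in the opposite direction, by the authors' deposited P8 table (adjusted p = 1). In the m6A table, made with another library kit, the antisense share of Stra8 was 0.0346%. The RefSeq table lists no other gene over the span of Stra8.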
